A study of Homo sapiens with 21 samples.

Results

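Tazemetostat was compared with vehicle in xenograft tumours of HT1376, an established human bladder carcinoma cell line, by RNA sequencing. The libraries were taken by the treatment in their labels: 3 tazemetostat and 3 vehicle libraries, 6 of the 21 in the series. The other 15 came from tumours treated with 5 further inhibitors of the same enzyme complex, and 9 of them, from mice given PF-06821497, CPI-1205 or Valemetostat, are used here for comparison.

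Tumour cells were placed under the skin of female CB17 SCID mice aged 6 to 8 weeks. These mice lack working T and B cells but keep natural killer cells, macrophages and granulocytes. Treatment began 11 to 15 days later, when tumours had reached 139 to 160 mm3 on average. Each compound was given once daily by mouth at 75 mg/kg, and tumours were collected on day 15, 1 hour after a dose; the labels give no further detail of the vehicle. All groups share the 1 cell line and the host strain.

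Tazemetostat is an inhibitor of EZH2 that competes with its methyl donor. EZH2, or its relative EZH1, is the catalytic subunit of polycomb repressive complex 2 (PRC2), which also needs EED and SUZ12. The complex places methyl groups on lysine 27 of histone H3, a mark of silenced genes such as developmental regulators and, in some tumours, genes of antigen presentation and chemokines. Loss of the mark can allow such genes to be transcribed, so higher levels are the direction usually looked for after EZH2 inhibition.

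The 6 libraries held 22371908 to 25771778 counts over human genes, against 9725690 to 25771778 in the whole series. Levels are given as CPM, counts scaled to a common library size, and as RPKM, which also divides by gene length, where genes are compared with each other. A gene with no count could stand at up to 0.134 CPM in the smallest of the 6, from 3 counts over its total before scaling. The scaled size of that library is slightly smaller, so the limit is slightly higher on the scale of the levels below. Such limits cover counting error only. The carcinoma identity of the tumours was checked by epithelial genes. In tazemetostat libraries the basal keratin KRT14 had a mean of 2270 RPKM ± 276 (SD, n = 3), KRT5 701 ± 48.5 and the urothelial factor GATA3 42.7 ± 2.43. The vehicle means were 2360 ± 80.8, 725 ± 47.3 and 46.8 ± 4.40 RPKM. FOXA1, a factor of luminal urothelium, was near 0 in both groups, with means of 0.0279 and 0.0335 RPKM. The spread among libraries was small: over 15683 genes of at least 1 CPM, the median SD of log2 CPM was 0.133 among tazemetostat and 0.126 among vehicle libraries, compared with 0.219, 0.204 and 0.185 for PF-06821497, CPI-1205 and Valemetostat.

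No gene passed the test between tazemetostat and vehicle tumours in the fit of all 21 libraries. Of 21958 genes tested with edgeR, 0 were higher (0%) and 0 lower (0%) at an adjusted p under 0.05. An unadjusted p under 0.05 was reached by 647 genes (2.95%), with 491 at higher levels (2.24%) and 156 at lower levels (0.71%) in tazemetostat tumours. The 3 tazemetostat libraries were all above the 3 vehicle libraries for 1324 genes (6.03%) and all below for 1065 (4.85%). DESeq2 called 5 genes higher and 0 lower, limma-voom called 0 in either direction, and a fit of only these 6 libraries called 11 higher and 1 lower. That last fit had 1175 of 18823 genes at an unadjusted edgeR p under 0.05. The main fit estimated the spread over all 21 libraries, of which the PF-06821497, CPI-1205 and Valemetostat ones varied more than these 6. Its SE was 0.192 for HLA-G and 0.222 for MMP10, against 0.08 and 0.234 in the fit of 6. The 0 calls therefore do not show that no gene differed.

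The intervals show how large a difference the fit of all 21 libraries still allows. The 95% interval of the fold change lay within 2-fold in both directions for 15590 genes (71.0%). That share was 99.2% of the 2340 genes with a mean of at least 100 CPM, 98.8% of the 7876 genes from 10 to 100 CPM and 82.7% of the 5467 genes from 1 to 10 CPM. Below 1 CPM it was 15.3% of 6275 genes, so for most genes at that level the interval did not exclude a 2-fold difference.

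The genes with the smallest p were led by MMP10, stromelysin-2, a secreted enzyme that cleaves extracellular matrix. MMP10 (ENSG00000166670, hg38 chr11:102770503-102780628, minus strand) was at 6.79, 5.07 and 7.98 CPM in the tazemetostat libraries and at 1.67, 3.31 and 2.61 CPM in the vehicle libraries. Every tazemetostat library was above every vehicle library. The fold was 2.60 (95% interval 1.89 to 3.57; log2 fold change 1.38 ± 0.22 SE) with an edgeR adjusted p of 0.0815, the smallest of the comparison. Over the alternative analyses this adjusted p ranged from 2.51e-09 without a low-count filter to 1 with limma-voom and with a test against a 1.5-fold change. The fit without a filter gave EZH2, EP300 and HLA-G an SE of 0.145, 0.143 and 0.146, against 0.101, 0.211 and 0.192 in the main fit. Its p-values may therefore not reflect the spread of each gene. With tazemetostat library 1, 2 or 3 left out the adjusted p of MMP10 was 0.411, 0.0293 or 0.746, and with vehicle library 1, 2 or 3 left out it was 0.995, 0.0449 or 0.654. The log2 fold change was 1.15 to 1.62 over these 6 fits.

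The other 4 of the 5 positive differences with the smallest p were in ACOT11, SPINK6, ADD3 and GDPD4, and none passed the adjusted threshold. ACOT11, an acyl-CoA thioesterase, was at 12.1, 14.9 and 13.3 CPM with tazemetostat and at 7.65, 7.64 and 7.55 CPM with vehicle, a log2 fold change of 0.82 ± 0.16 (edgeR adjusted p = 0.432). ADD3, the gamma-adducin of the membrane skeleton, was at 2.84, 2.78 and 2.46 CPM against 1.04, 0.671 and 1.07 CPM, a log2 fold change of 1.54 ± 0.33 (edgeR adjusted p = 0.558). In both genes the groups did not overlap. SPINK6, an inhibitor of kallikrein proteases of the skin, had means of 4.38 and 2.23 CPM, and GDPD4, of the glycerophosphodiester phosphodiesterase family, 2.72 and 1.3 CPM, again with no overlap.

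Among the 5 negative differences with the smallest p none passed the adjusted threshold. FRMD4A, a scaffold protein of epithelial polarity, was at 77.4, 80.7 and 83.7 CPM with tazemetostat and 106, 103 and 97.3 CPM with vehicle, a log2 fold change of -0.34 ± 0.09. The long noncoding RNA LINC02518 was at 3.44, 3.99 and 3.75 CPM against 4.93, 6.84 and 7.36 CPM, a log2 fold change of -0.77 ± 0.24. Tazemetostat libraries were the lower ones in both genes, and their edgeR adjusted p was 1 in each. Also among the 5 were 2 processed pseudogenes, AL445933.1 and RNPS1P1, whose reads may be shared with their parent genes.

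**Figure D1:**
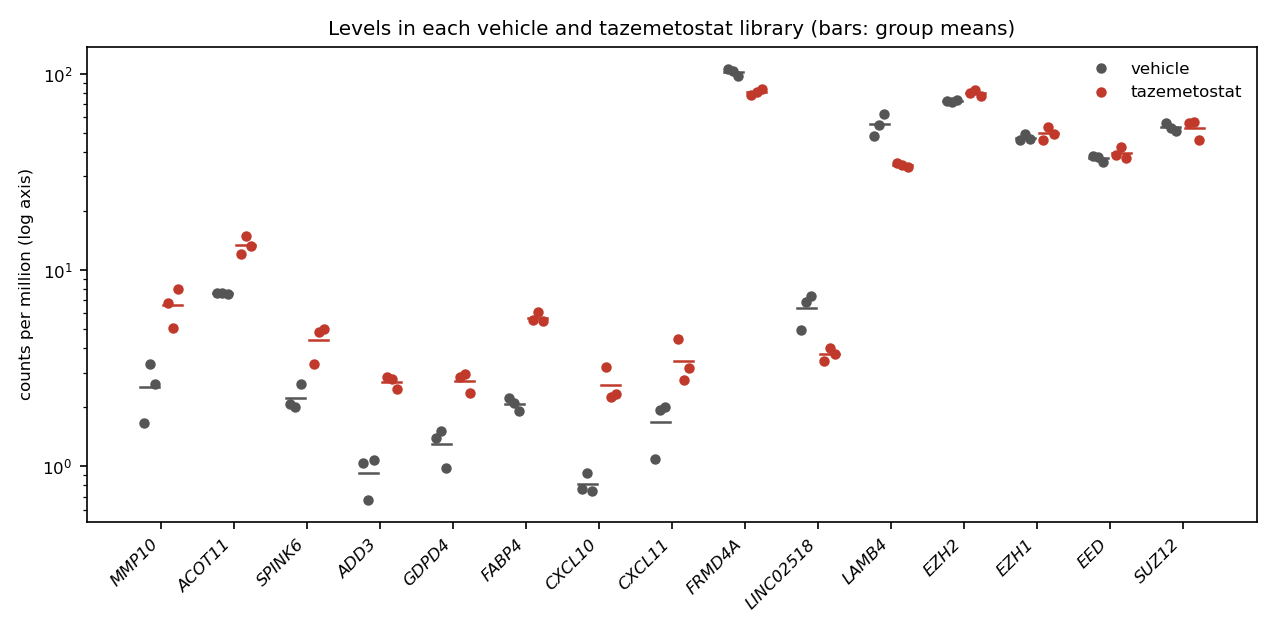
CPM (log axis) of 15 genes in each of the 3 vehicle (grey) and 3 tazemetostat (red) libraries, with bars at group means. The groups do not overlap in the 11 genes on the left, and they lie close together for EZH1, EED and SUZ12.

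FABP4, a fatty acid carrier of adipocytes and of urothelium, was at 5.55, 6.08 and 5.48 CPM with tazemetostat and at 2.22, 2.10 and 1.91 CPM with vehicle. Its fold was 2.74 (95% interval 1.70 to 4.41), with an edgeR adjusted p of 0.558. The fit of only these 6 libraries gave FABP4 an adjusted p of 0.00712 and DESeq2 gave 0.0191. Among the 4 tested adipocyte markers FABP4 carried the difference: the summed level of the 8 listed was 13.2 to 16.2 CPM with tazemetostat and 9.64 to 10.2 CPM with vehicle, LPL had a log2 fold change of 0.44 ± 0.35 and PLIN4 -0.08 ± 0.25, and ADIPOQ was at 0 counts in all 6 libraries. The part of adipocytes in the FABP4 values was not tested.

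The chemokines CXCL10 and CXCL11, which attract T cells and are induced by interferons, were at higher levels in all 3 tazemetostat libraries. CXCL10 (ENSG00000169245, hg38 chr4:76021117-76023497, minus strand) was at 3.20, 2.25 and 2.33 CPM with tazemetostat and at 0.770, 0.923 and 0.745 CPM with vehicle, a fold of 3.17 (95% interval 1.48 to 6.80). CXCL11 was at 4.44, 2.74 and 3.15 CPM against 1.09, 1.93 and 2.00 CPM, a fold of 2.05 (95% interval 1.26 to 3.33). Both had an edgeR adjusted p of 1, and the fit of only these 6 libraries gave 0.0234 for CXCL10 and 0.213 for CXCL11. CXCL9, the third of this group, had 1 count in all tazemetostat libraries together and 0 with vehicle.

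The bases just before the starts of MMP10 and CXCL10 are shown because these genes had the smallest p overall and the largest difference with a mean above 1 CPM among the chemokines; both were picked after their values were seen. The sequences are from RefSeq (GRCh38.p14, minus strand, 250 bases ending at the base before the start, written 5′ to 3′). Capitals mark matches to any of 3 motifs searched on both strands: AP-1 as TGANTCA, the interferon-stimulated response element as GAAA, any 2 bases and GAAA, and NF-kB as GGGA, any base, TT, any base and CC, none of which overlap here.
MMP10, chr11:102780629-102780878: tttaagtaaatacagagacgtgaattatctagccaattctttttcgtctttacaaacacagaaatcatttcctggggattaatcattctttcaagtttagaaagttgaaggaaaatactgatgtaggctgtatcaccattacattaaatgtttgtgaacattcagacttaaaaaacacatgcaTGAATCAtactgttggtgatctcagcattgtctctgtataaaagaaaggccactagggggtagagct
CXCL10, chr4:76023498-76023747: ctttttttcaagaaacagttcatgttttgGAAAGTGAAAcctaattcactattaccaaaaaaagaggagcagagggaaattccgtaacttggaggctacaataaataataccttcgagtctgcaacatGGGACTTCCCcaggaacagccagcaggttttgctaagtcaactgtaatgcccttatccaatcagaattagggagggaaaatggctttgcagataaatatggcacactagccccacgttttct
The MMP10 window held 1 AP-1 match, 67 to 61 bases before the start, and the CXCL10 window 1 interferon-type match, 221 to 212 bases before the start, and 1 NF-kB match, 122 to 113 bases before it. Among the 12842 tested genes with such a window, 4.84% held the AP-1 letters, 2.45% the interferon-type letters and 1.37% the NF-kB letters. The windows of MMP10 and CXCL10 had 2 and 3 CpG pairs, against a median of 19 over the 12842. Only these letters were searched, so unmarked bases, such as gggaaattcc in the CXCL10 window, may hold other forms of the motifs. A match of letters is a description of the sequence, not a measured binding site.

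Of the drug target itself, EZH2 messenger RNA was at 79.6, 82.6 and 76.5 CPM with tazemetostat and at 72.7, 71.4 and 73.6 CPM with vehicle. The libraries did not overlap, and the log2 fold change was 0.13 ± 0.10, with a 95% interval of -0.08 to 0.34. The intervals of EZH1 (-0.15 to 0.30), EED (-0.18 to 0.36) and SUZ12 (-0.40 to 0.38) on the log2 scale also lay within 2-fold. A messenger RNA level does not measure the enzyme or its histone mark.

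Among 14 PRC2 subunits and cofactors 0 passed the test in either direction, and the median log2 fold change was 0.06, against 0.00 over all genes tested. The largest positive value was that of EZHIP, an inhibitor of the complex listed as CXorf67 in GENCODE 29, at 2.40, 1.81 and 2.68 CPM against 0.996, 1.72 and 1.3 CPM (log2 fold change 0.77 ± 0.30). Of 19 PRC1 subunits, which read the mark or ubiquitinate histone H2A, 0 passed and all 19 had an interval within 2-fold. PCGF5 was the PRC1 member with the smallest p, at 13.5, 10.9 and 8.67 CPM against 8.01, 8.35 and 7.22 CPM. The 4 H3K27 demethylases and acetylases, KDM6A, KDM6B, EP300 and CREBBP, had log2 fold changes of -0.16 to -0.04, all with intervals within 2-fold; the signs of KDM6A, EP300, CREBBP and SUZ12 were positive when some single libraries were left out.

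Developmental genes, which polycomb silences in most tissues, gave no call. Of 39 HOX genes 26 were tested and 0 passed, with a median of 0.11 and only 1 interval within 2-fold. The highest HOX value was that of HOXC11 and the lowest that of HOXD4, both under 1 CPM. Of 160 other developmental transcription factors 99 were tested, 0 passed and the median was 0.02. TWIST1 was at 6.27, 5.88 and 5.95 CPM against 4.16, 4.11 and 5.17 CPM, with no overlap and an interval of -0.04 to 0.90 on the log2 scale. Among 50 tested WNT, BMP and hedgehog genes the median was 0.00. DKK1, a WNT antagonist, was at 0.799, 0.805 and 1.77 CPM against 0.498, 0.462 and 0.419 CPM, without overlap (log2 fold change 1.27 ± 0.47). The ligand BMP7 was at 3.72, 3.10 and 4.23 CPM against 3.26, 7.09 and 6.85 CPM, with overlap (-0.64 ± 0.25).

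Axon guidance genes had a median of 0.14 over 34 tested and neuronal genes 0.30 over 35, with 0 passing in either list. The neuronal median was 0.17 without tazemetostat library 1 and 0.16 without vehicle library 2. SEMA3A, a secreted repellent of axons, was at 4.40, 3.86 and 4.23 CPM against 2.40, 2.85 and 2.33 CPM (log2 fold change 0.72 ± 0.20). The receptor EPHB1 was at 8.83, 10.5 and 8.54 CPM against 10.8, 15.0 and 16.5 CPM (-0.60 ± 0.22). Neither pair of groups overlapped. UCHL1, a neuronal ubiquitin hydrolase, was at 1.44, 0.886 and 1.21 CPM against 0.407, 0.881 and 0.606 CPM. ELAVL4, a neuronal RNA-binding protein, had 14 counts with tazemetostat and 1 with vehicle, a ratio of 12.9 with a 95% counting interval of 1.97 to 546.

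Cancer-testis genes, which are active in germ cells and derepressed in tumours, had a median of 0.06 over 40 tested. All 3 tazemetostat libraries were above the vehicle libraries for 11 of the 40 and below for 1, beside 6.03% and 4.85% of all genes tested, and 0 passed the test. PAGE1 was at 5.39, 3.82 and 4.53 CPM against 3.08, 2.85 and 2.47 CPM, a log2 fold change of 0.71 ± 0.22. MAGEA10 was at 9.55, 8.98 and 9.10 CPM against 6.43, 7.22 and 7.08 CPM, a log2 fold change of 0.41 ± 0.14. Many genes of these families have near-identical copies, so their counts are uncertain.

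MHC class II genes, which present peptides to helper T cells, had a median log2 fold change of 0.52 over 18 tested, and 0 passed. That median was 0.33 without vehicle library 1 and 0.34 without vehicle library 3. HLA-DRA was at 5.67, 6.52 and 4.23 CPM with tazemetostat and 3.26, 4.36 and 2.38 CPM with vehicle, so the groups overlapped, and its interval ran from -0.34 to 1.76 on the log2 scale. HLA-DQB1 was at 4.51, 3.90 and 4.19 CPM against 2.63, 3.52 and 2.33 CPM, without overlap (0.57 ± 0.44). CIITA, the activator of the class, had 0.22 ± 0.30 and the invariant chain CD74 0.24 ± 0.40. Vehicle library 2 was the highest vehicle library for HLA-DRA, HLA-DQB1, CIITA and CD74. HLA-G of the class I list was at 426, 423 and 441 CPM against 295, 298 and 300 CPM (0.53 ± 0.19), although reads of class I genes can be shared among them. The class I list as a whole had a median of 0.03 and all 21 members had an interval within 2-fold.

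Chemokines had a median of 0.51 over 21 tested, or 0.35 when members with no count in a group were set at their bound and members with at most 3 counts in both groups were left out; without tazemetostat library 2 it was 0.31. CCL5 was at 25.7, 34.7 and 17.2 CPM against 18.8, 17.9 and 14.3 CPM, with overlap, and CXCL8 had a log2 fold change of 0.51 ± 0.30. Cytokines had a median of 0.21 over 27, and of 0.08 without vehicle library 1. LIF, an IL6-family ligand, was at 8.79, 5.56 and 6.99 CPM against 4.93, 4.70 and 3.68 CPM (0.68 ± 0.28), without overlap. Interferon-stimulated genes had a median of -0.02 over 49, and 45 of them had an interval within 2-fold. In the NF-kB list TRAF1 was at 23.8, 24.8 and 23.5 CPM against 19.4, 17.7 and 15.9 CPM (0.45 ± 0.16). The counts passing the test were 0 in each of these 4 lists and 0 among the 19 checkpoint and natural killer cell ligands.

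**Figure D2:**
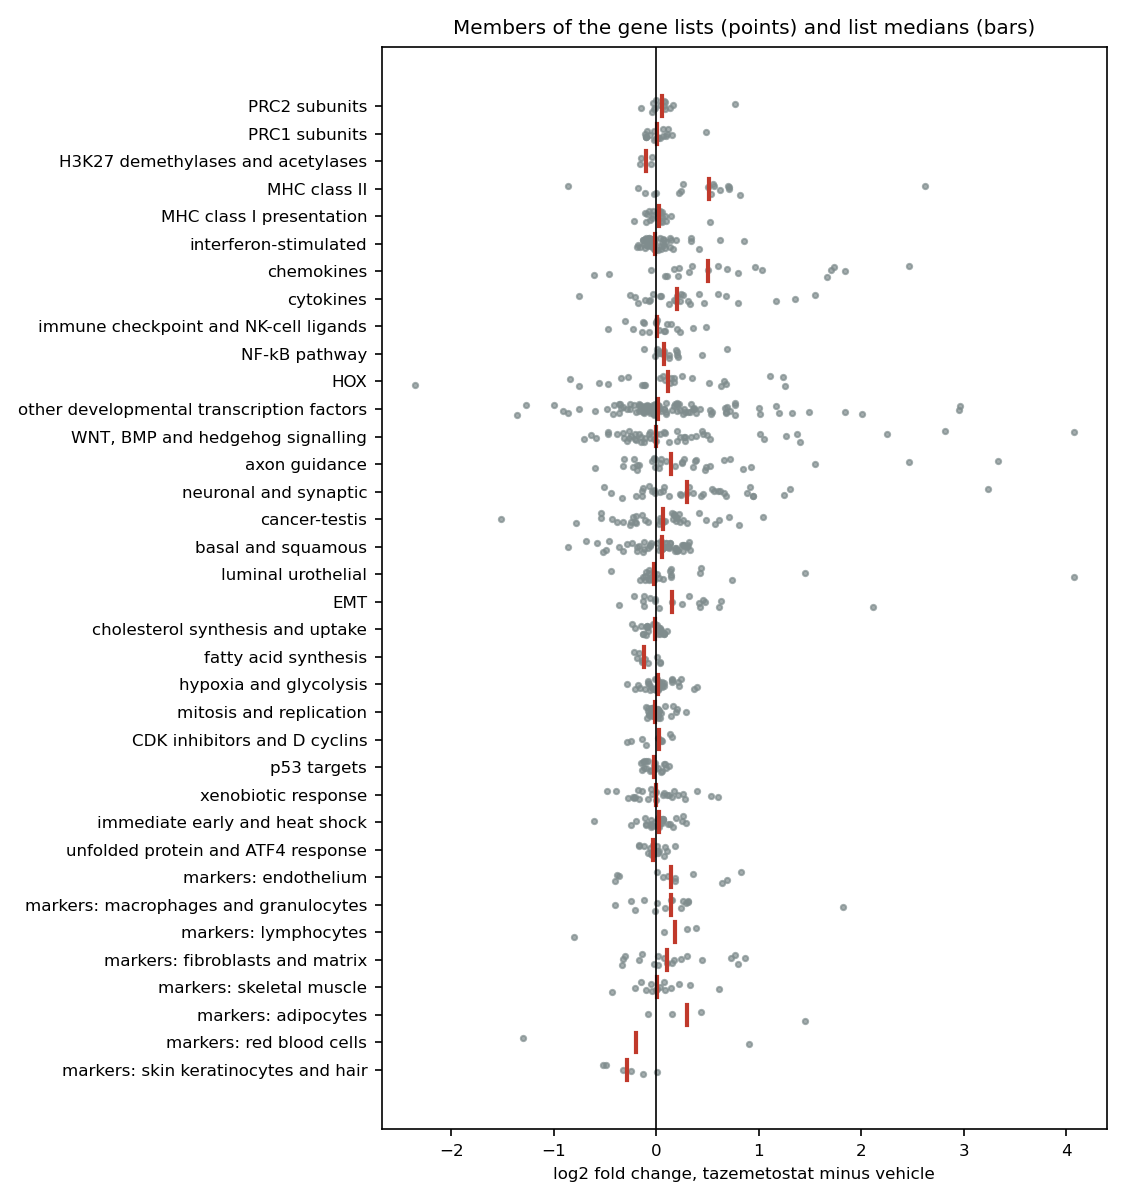
Log2 fold change, tazemetostat minus vehicle, of each tested member (grey point) of 28 gene lists and 8 lists of markers of other cell types, with list medians as red bars. Medians ran from -0.29 for skin keratinocyte markers to 0.52 for MHC class II, and points far from 0 are mostly genes of low counts.

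Epithelial genes included several with lower values, although 30 of the 50 basal and squamous genes tested had positive log2 fold changes. The groups did not overlap for 5 of the 50 at higher and 6 at lower levels, beside 6.03% and 4.85% of all genes tested. LAMB4, a laminin chain of the basement membrane, was at 35.1, 34.3 and 33.6 CPM with tazemetostat and 48.0, 55.0 and 62.2 CPM with vehicle (log2 fold change -0.68 ± 0.34). DSC1, a desmosomal cadherin of upper epidermis, was at 19.2, 22.0 and 18.1 CPM against 25.5, 31.2 and 50.9 CPM (-0.86 ± 0.37). FLG, the barrier protein filaggrin, was at 55.7, 57.8 and 51.6 CPM against 57.9, 85.0 and 93.1 CPM (-0.52 ± 0.24). None of the 3 overlapped and none passed the adjusted test, while the fit of only these 6 libraries called LAMB4 lower. The basal and squamous list as a whole had a median of 0.06 over 50, with 0 called, and the luminal list -0.02 over 27. TFF1, a trefoil peptide of mucosa, had 7 counts with tazemetostat and 0 with vehicle. The 7 counts were 2.15-fold above a bound of 3 counts over the vehicle group, and the error of the 7 counts was not included.

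Matrix and mesenchymal genes had a median of 0.15 over 19. MMP9, a gelatinase, was at 210, 215 and 240 CPM against 181, 120 and 130 CPM (log2 fold change 0.63 ± 0.21). TNC, the matrix protein tenascin, was at 90.7, 84.0 and 77.2 CPM against 60.1, 53.7 and 66.7 CPM (0.48 ± 0.17), and the receptor kinase AXL at 27.3, 28.1 and 27.3 CPM against 25.3, 19.3 and 21.7 CPM (0.32 ± 0.13). All 3 were without overlap and none passed the adjusted test. Of the 19 listed, 6 had all tazemetostat libraries above the vehicle libraries and 0 all below, beside 6.03% and 4.85% of all genes tested. Marker sums of host and stromal cells overlapped between groups for skeletal muscle (584 to 762 CPM with tazemetostat, 634 to 712 with vehicle) and for fibroblasts (2030 to 2200 against 1770 to 2540 CPM). Host cells here are mouse cells, the counts are over human genes and the removal of mouse reads is not given. The sums may therefore not measure host cells. Macrophage and granulocyte markers summed to 3820 to 4420 CPM against 2710 to 3940 CPM, nearly all from S100A8 and S100A9, which squamous carcinoma cells also make, with the leukocyte gene PTPRC at 0.126 to 0.259 CPM in the 6 libraries. Endothelial markers summed to 50.6 to 62.4 CPM against 43.9 to 48.8 CPM, with PECAM1 at 0.70 ± 0.26 and VWF at -0.36 ± 0.27 on the log2 scale. In each of the 8 lists of markers of other cell types 0 members passed, and the part of such cells in the values above was not tested; fewer cells of a type and less RNA per cell cannot be told apart in bulk tissue.

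Proliferation and metabolism lists were narrowly distributed, with medians near 0 except for fatty acid synthesis. Of its 10 genes 3 had positive values, and the groups did not overlap for 3 at lower and 0 at higher levels, beside 4.85% and 6.03% of all genes tested. With 1 library left out its median was -0.17 to -0.07. All 40 mitosis and replication genes had an interval within 2-fold, with a median of -0.01, and MKI67 had a log2 fold change of -0.05 ± 0.14. The same held for all 25 cholesterol genes (median -0.01), all 21 p53 targets (-0.03), all 10 CDK inhibitors and D cyclins (0.03), all 10 fatty acid synthesis genes tested (-0.12) and all 19 unfolded protein and ATF4 response genes (-0.03). CDKN2A, a cell-cycle inhibitor and known polycomb target, was at 204, 182 and 223 CPM against 225, 192 and 172 CPM. EGR1, an immediate early factor, was at 104, 99.2 and 122 CPM against 125, 181 and 193 CPM (-0.61 ± 0.19), without overlap. The remaining lists had medians of 0.02 over 35 hypoxia and glycolysis genes, 0.00 over 26 xenobiotic response genes and 0.03 over 28 immediate early and heat shock genes, and of 0.19, -0.19 and -0.29 over 4 lymphocyte, 2 red cell and 6 skin keratinocyte markers, with 0 members passing.

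**Figure D3:**
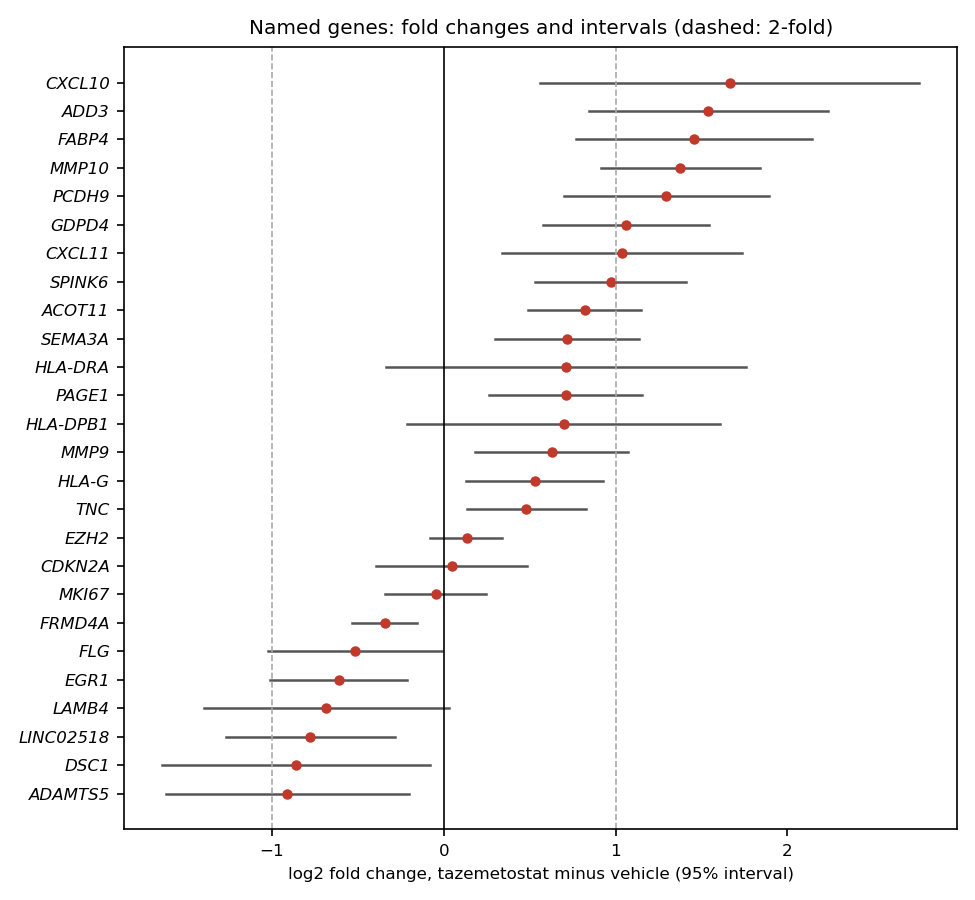
Log2 fold change, tazemetostat minus vehicle, with its 95% interval for 26 named genes, dashed lines marking 2-fold. MMP10 has the smallest p but CXCL10 the highest value, and the intervals of HLA-DRA and HLA-DPB1 include 0.

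Tazemetostat was set against 3 other catalytic-site inhibitors at the same dose, day and time after dosing, in 3 comparisons whose differences do not use the vehicle means, although the vehicle libraries share in the model's estimate of the spread. The labels mark 1 PF-06821497 and 2 CPI-1205 libraries as resubmitted, and PF-06821497 replicate numbers differ between titles and count columns. Against CPI-1205, 0 genes were higher (0%) and 0 lower (0%) by edgeR, with 2265 at an unadjusted p under 0.05 (10.3%). DESeq2 gave 9 higher and 0 lower and limma-voom 0. The interval lay within 2-fold for 14995 genes (68.3%), and the missing calls do not show that the 2 compounds act alike. MMP10 was at 4.72, 5.32 and 4.39 CPM with CPI-1205, below 2 of the 3 tazemetostat libraries, with a log2 difference of 0.46 (95% interval 0.03 to 0.89, edgeR adjusted p = 0.466). HLA-DRA was at 5.31, 9.12 and 1.52 CPM with CPI-1205 (0.04, interval -0.96 to 1.03), and CXCL10 at 1.59, 2.85 and 2.46 CPM (0.17, interval -0.77 to 1.11), and both overlapped with the tazemetostat libraries. The FABP4 difference was -0.01 (interval -0.64 to 0.61).

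Against PF-06821497, 123 genes were higher (0.56%) and 405 lower (1.84%) with tazemetostat. MHC class II genes were lower for 8 of 18, with a median of -1.59: HLA-DRA was at 25.2, 16.8 and 19.3 CPM with PF-06821497 (log2 difference -1.90 ± 0.45, adjusted p = 0.0343). MMP10 was at 46.5, 27.8 and 34.8 CPM (-2.46 ± 0.20, adjusted p = 7.78e-07). CXCL10 was at 15.9, 8.85 and 9.83 CPM (-2.14 ± 0.40, adjusted p = 0.0082), and FABP4 at 34.0, 25.1 and 45.7 CPM (-2.61 ± 0.30, adjusted p = 0.000165). ADD3, at 11.9, 5.54 and 7.68 CPM, and ACOT11, at 29.5, 16.3 and 24.1 CPM, were lower with tazemetostat by 1.63 ± 0.28 and 0.79 ± 0.15 on the log2 scale. BMP5, a ligand of the BMP family, differed by -3.85 ± 0.50. Genes higher with tazemetostat included MME, the membrane peptidase neprilysin (1.24 ± 0.25), and LINC02518 (1.62 ± 0.26). Without tazemetostat library 2 the counts were 15 higher and 119 lower, without library 1 they were 27 and 168, without library 3 they were 37 and 148, without PF-06821497 library 1 they were 75 and 233, and without library 3 they were 39 and 231.

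Against Valemetostat, which inhibits EZH1 as well as EZH2, 1908 genes were higher (8.69%) and 2551 lower (11.6%) with tazemetostat. Of 18 MHC class II genes 14 were lower, with a median of -4.01, and none was higher. HLA-DPB1 was at 1.40, 1.53 and 1.17 CPM with tazemetostat and at 19.2, 13.1 and 34.1 CPM with Valemetostat (-4.01 ± 0.36, adjusted p = 3.22e-07). MMP10 was at 69.2, 87.1 and 85.0 CPM with Valemetostat (-3.60 ± 0.20, adjusted p = 8.51e-10). Chemokines were lower for 17 of 21, CXCL10 by -4.67 ± 0.41 and CCL5 by -2.44 ± 0.28, and 41 of 99 developmental transcription factors were lower and 8 higher. ST6GAL1, a sialyltransferase, was at 0.0805 to 0.16 CPM with tazemetostat and 4.29 to 13.2 CPM with Valemetostat (-6.01 ± 0.49). LAMB4 and DSC1 were higher with tazemetostat, by 3.16 ± 0.39 and 3.04 ± 0.43, and basal and squamous genes were higher for 22 of 50 and lower for 3. Mitosis and replication genes gave 0 calls of 40, with a median of 0.01. Without tazemetostat library 1 there were 1094 higher and 2074 lower, without library 2 1146 and 1898, without Valemetostat library 1 1201 and 2126, and without Valemetostat library 3 1096 and 1902.

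**Figure D4:**
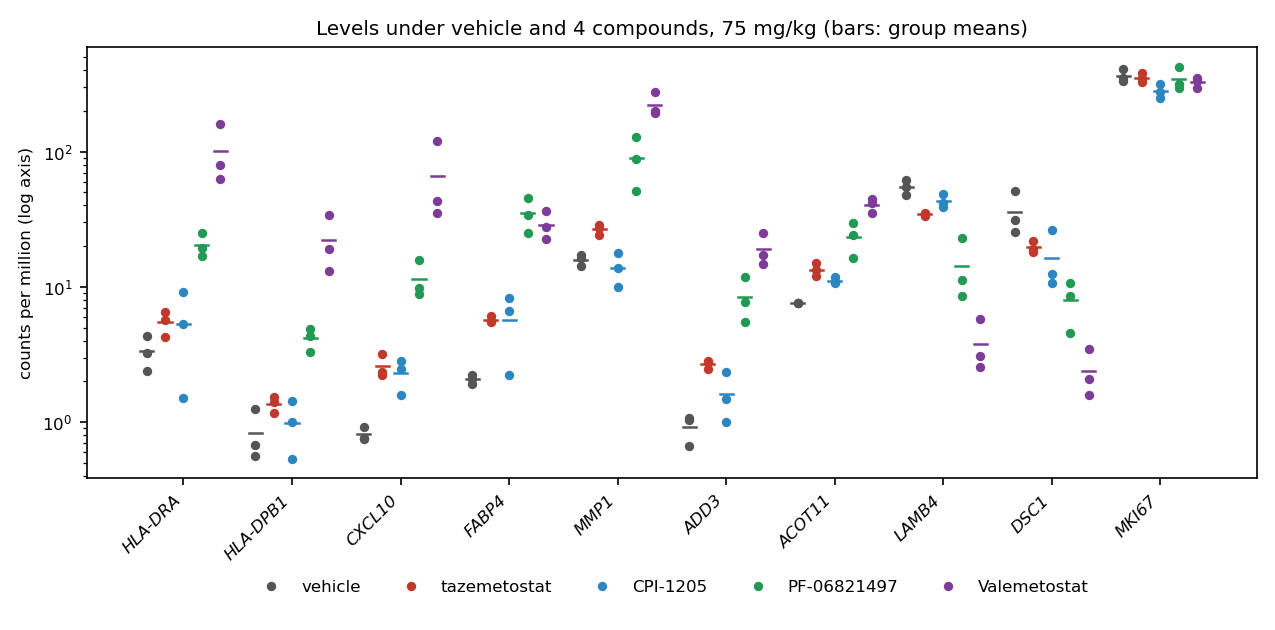
CPM (log axis) of 10 genes in 3 libraries of each of 5 groups, all compounds at 75 mg/kg, with bars at group means. For HLA-DRA, HLA-DPB1, CXCL10, ADD3 and ACOT11 the tazemetostat libraries lie below all PF-06821497 and Valemetostat libraries, and MKI67 lies between 250 and 425 CPM in the 15 libraries.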

How the data were processed

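RNA sequencing gave 21 libraries from HT1376 xenograft tumours, 3 in each of 7 groups, and the 6 tazemetostat and vehicle libraries are described here. The authors deposited whole-number read counts per human gene for each library, not normalized. STAR 2.7.3a, RSEM 1.3.1 and the hg38 build are named per the submitters' processing notes. Not given in the sources used here were the program that counted reads, its strand setting, the annotation release and whether mouse reads were taken out, so antisense partners and near-identical copies may share reads. Symbols were taken from GENCODE 29, matched by gene identifier. Library sizes were scaled by TMM, genes of low counts were dropped by edgeR's default rule by group, and 1 quasi-likelihood model with a term per group was fitted to all 21 libraries (edgeR 4.0.16 in R 4.3.3, 14 residual degrees of freedom). A gene was called at a Benjamini-Hochberg adjusted p under 0.05 over the 21958 genes tested, within each comparison, and intervals are 95% intervals of the model. DESeq2 1.42.0 and limma-voom (limma 3.58.1) were alternatives, with other filters, scalings, a replicate block, the 2 groups alone and each library left out. The labels do not say that each library came from a separate mouse, so p-values measure only the spread between these samples, which may be technical. Total counts of the 6 libraries were 22371908 to 25771778, and counting intervals cover counting error only. Named genes are EZH2, EZH1, EED and SUZ12, the 5 positive and 5 negative differences with the smallest p, up to 4 members with the smallest p of each of 28 gene lists and 8 lists of markers of other cell types, and the 5 largest called differences each way against another compound. KRT14, KRT5, GATA3, FOXA1, CIITA, CD74, CXCL8, CXCL9, ADIPOQ, MKI67, CDKN2A, VWF and PTPRC were named after their values were seen. The groups, lists and rules were chosen with earlier results of these data known. Genes named for a small p were picked from these same data, so a lack of overlap describes them and gives no further support. 1 of the 5 negative differences is not reported here.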

Additional observations from a re-analysis of the deposited data

How the results depend on the processing

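Against vehicle, 0 genes higher and 0 lower became 43 and 3 without a low-count filter, 1 and 0 with upper-quartile scaling, 5 and 0 with DESeq2, and 11 and 1 in the fit of the 2 groups; leaving out 1 library gave 0 to 1 higher and 0 lower. In the fit without a filter several genes of high counts had nearly the same SE whatever their SE in the main fit. Its calls may therefore not reflect the spread of each gene. Against PF-06821497 the counts were 269 and 735 without a filter, 281 and 610 with DESeq2, 1 and 42 against a 1.5-fold change, and 15 to 127 and 119 to 437 with 1 library left out. Against CPI-1205 they were 250 and 90 without a filter and 9 and 0 with DESeq2. Against Valemetostat they were 241 and 1286 against a 1.5-fold change, 1308 and 3013 with upper-quartile scaling, and 1094 to 1651 and 1898 to 2419 with 1 library left out. With a replicate block the counts against PF-06821497 were 75 and 308, and against vehicle 0 and 0. Same-numbered tazemetostat and vehicle libraries had correlations of -0.0437, -0.137 and -0.158, and differently numbered ones of -0.0397 to 0.162. These are correlations of deviations from means of 3 libraries, so they cannot show whether the numbers mark a pairing. List members called without a filter were 2 chemokines, 1 axon guidance, 1 luminal, 1 EMT, 1 endothelial and 1 adipocyte gene higher and 2 basal and 1 immediate early gene lower. DESeq2 called 1 luminal and 1 adipocyte gene higher, and the fit of 2 groups 1 gene higher in the MHC class I, chemokine, luminal and adipocyte lists and 1 basal gene lower. Median log2 fold changes moved, in the fit of 2 groups, to 0.28 for chemokines, -0.07 for WNT, BMP and hedgehog, 0.04 for axon guidance and 0.16 for cancer-testis genes. Without a filter they were -0.06 for WNT, BMP and hedgehog, 0.25 for axon guidance and 0.67 for red cell markers, and with at least 1 CPM in 3 libraries -0.06 for WNT, BMP and hedgehog and 0.16 for cancer-testis genes. With 1 library left out the medians ranged from -1.11 to 0.64 for skeletal muscle markers, 0.33 to 0.69 for MHC class II genes, 0.31 to 0.54 for chemokines, 0.08 to 0.3 for cytokines, 0.16 to 0.37 for neuronal genes, -0.17 to 0.03 for H3K27 demethylases and acetylases, -0.31 to 0.32 for HOX genes, -0.05 to 0.05 for WNT, BMP and hedgehog genes, -0.03 to 0.31 for EMT genes, -0.04 to 0.22 for endothelial markers, -0.41 to 0.31 for lymphocyte markers and -0.34 to 0.05 for red cell markers. Log2 fold changes that changed sign ranged, with 1 library left out, from -0.06 to 0.08 for SUZ12, -0.25 to 0.04 for EP300, -0.11 to 0.07 for CREBBP, -0.13 to 0.04 for KDM6A, -0.08 to 0.53 for CENPE, -0.41 to 0.42 for CD3D, -1.5 to 2.28 for MYH7 and 0 to 0.24 for MB. SUZ12 also had 0 with upper-quartile scaling, and limma-voom gave -0.03 for CD3D and 0.59 for MYH7. These 16 sign changes were in 8 genes and 0 of them passed the threshold; the cause was not tested. Of 2245 values of 152 named genes, 2204 kept direction and side and 25 passed the threshold only under the alternative. A split of promoter bases by called genes was not run, since 0 genes were called. For most genes below 1 CPM the interval of the difference did not exclude 2-fold.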

Other observations

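The fit of only the 6 tazemetostat and vehicle libraries called 12 genes, 11 higher and 1 lower, and 4 of the higher ones are described here after their values were seen. TMPRSS11E, a membrane serine protease of squamous epithelium, was at 17.5, 20.5 and 17.6 CPM with tazemetostat and 10, 11.4 and 8.85 CPM with vehicle (edgeR adjusted p = 0.0234 in that fit). CEACAM6, an epithelial adhesion molecule, was at 12.7, 10.7 and 13.2 CPM against 6.61, 6.55 and 7.5 CPM (edgeR adjusted p = 0.0331). MMP1, interstitial collagenase, was at 24.3, 28.5 and 27.4 CPM against 17.3, 16.3 and 14.2 CPM (edgeR adjusted p = 0.0234). PCDH9, a protocadherin of neural tissue, was at 3.24, 3.95 and 3.80 CPM against 1.77, 1.3 and 1.4 CPM (edgeR adjusted p = 0.0234), and DESeq2 on all libraries also called it. In all 4 genes each tazemetostat library was above each vehicle library. In the fit of all 21 libraries the adjusted p was 0.558 for PCDH9 and 1 for the other 3.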
